A study of Catharanthus roseus with 3 samples.

Results

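LAMT (loganate methyltransferase, transcript Cr_TC02224) and SLS (secologanin synthase, Cr_TC01142) encode the last steps that lead to secologanin in Catharanthus roseus, the Madagascar periwinkle. The 2 transcripts were taken by their identifiers from the 59220 assembled transcripts, and the rule that picks them uses no measured value, although the pair was proposed with earlier results of these data known. Leaf, root and flower were collected from adult plants of the variety Prabal grown in the field, without any treatment, and each tissue gave 1 library of total RNA. The labels do not say how many plants went into a library. In the sequencing there is therefore no spread between replicates, no test was possible and no p-value is given for any comparison. The study also ran real-time RT-PCR on biological replicates, with primers for both transcripts. It reports patterns similar to the sequencing for all genes chosen. Those measurements are not used here.

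Secologanin is the monoterpene part of strictosidine, from which the terpenoid indole alkaloids of this plant are built, vinblastine and vincristine among them. The iridoid route starts from geranyl diphosphate and passes through geraniol and nepetalactol to loganic acid. LAMT transfers a methyl group from S-adenosylmethionine to loganic acid and gives loganin. SLS, a cytochrome P450 of the CYP72A family, then opens the ring of loganin to form secologanin. In leaves of this species the late steps are known from the epidermis, whereas the early iridoid steps are known from the internal phloem-associated parenchyma. Whole organs were sequenced here, so fewer cells of a type and less RNA per cell cannot be told apart.

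Levels are given in RPKM, which is reads per kilobase of transcript scaled to the size of the library and so can be set side by side between genes. The deposited values summed to 452743 in leaf, 464279 in flower and 471970 in root, and their smallest step was 0.01 RPKM. The exact number of reads behind a value is not known, because transcript lengths were not at hand. The study gives the uniquely mapped reads of each library, so reads per kilobase could be gauged. This was not done, and no counting error is attached to a level. T16H, a hydroxylase of the vindoline branch that is known from aerial organs, had 0.04 RPKM in root against 7.01 in leaf and 17.3 in flower. T19H, a hydroxylase known from roots, had 8.96 RPKM in root and 0.01 in leaf, and was listed at 0 in flower. These are the values of 1 transcript each. The study itself points out both from the same libraries, so they are no independent check of the tissue labels.

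Both transcripts were highest in root, intermediate in leaf and lowest in flower. For LAMT the root library held 64.1 RPKM, the leaf library 3.37 RPKM and the flower library 1.2 RPKM. For SLS the root library held 577 RPKM, the leaf library 87.9 RPKM and the flower library 13.3 RPKM. SLS stood above LAMT in every library, and its lowest level, in flower, was above the leaf level of LAMT. Root held 93.3% of the LAMT level summed over the 3 tissues, and leaf 4.91%. For SLS root held 85.1% of the sum and leaf 13.0%. The median root share over the 13867 transcripts that reached 10 RPKM in a tissue (called the expressed transcripts from here on) was 27.5%. At least the root share of LAMT was found for 384 others of them, and at least that of SLS for 691.

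**Figure D1:**
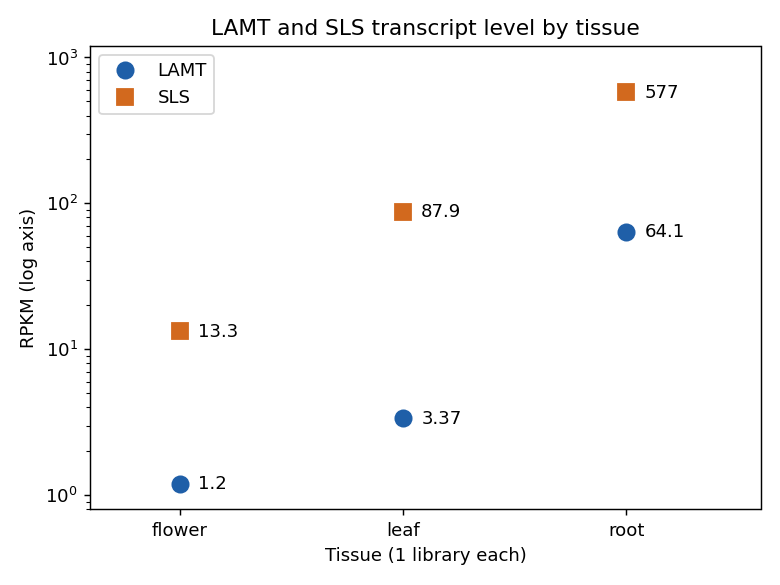
Level of LAMT (circles) and SLS (squares) in RPKM on a log axis, 1 library for each tissue and no error bars because there are no replicates. Both are lowest in flower (1.2 and 13.3 RPKM), higher in leaf (3.37 and 87.9 RPKM) and highest in root (64.1 and 577 RPKM).

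By rank, SLS stood at place 40 of the 59220 transcripts in root, at place 698 in leaf and at place 7806 in flower. It was thus within the top 0.0675% of the root list and the top 13.2% of the flower list. LAMT stood at place 1372 in root, 16501 in leaf and 23687 in flower, which is within the top 2.32%, 27.9% and 40.0% of the lists. Of the 39 transcripts above SLS in root, 32 exceeded both other tissues in root by at least 2-fold, but only 2 were as far above flower as SLS. Of the 1371 transcripts above LAMT in root, 659 exceeded both other tissues there by at least 2-fold, and 48 were as far above flower as LAMT. Of all expressed transcripts, 14.9% exceeded both other tissues in root by at least 2-fold.

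Root was compared with flower and leaf by the log2 ratio of (RPKM + 1), where a value of 1 is 2-fold. The added 1 keeps very low levels from giving extreme ratios, and it understates the difference of a low transcript such as LAMT. Against flower, root was 53.4-fold higher for LAMT and 43.5-fold higher for SLS as plain ratios of RPKM. On the log2(RPKM + 1) scale the differences were 4.89 for LAMT and 5.34 for SLS. Among the 11639 transcripts whose larger value in this pair reached 10 RPKM, root was at least 2-fold higher for 20.8%, and the median log2 ratio was -0.18. A log2 ratio at least as large as that of LAMT was found for 83 other transcripts, and one at least as large as that of SLS for 49.

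Against leaf, root was 19.03-fold higher for LAMT and 6.56-fold higher for SLS as plain ratios. The log2(RPKM + 1) differences were 3.90 and 2.70. Of the 12517 transcripts compared between root and leaf, root was at least 2-fold higher for 24.8%, and the median was -0.26. Here 604 other transcripts had a log2 ratio as large as that of LAMT, and 1414 one as large as that of SLS. The difference from flower therefore set the pair further from the other transcripts than the difference from leaf did. In both comparisons together, 74 of the 13867 expressed transcripts were at least as far above both leaf and flower in root as LAMT, and 47 were at least as far above both as SLS.

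**Figure D2:**
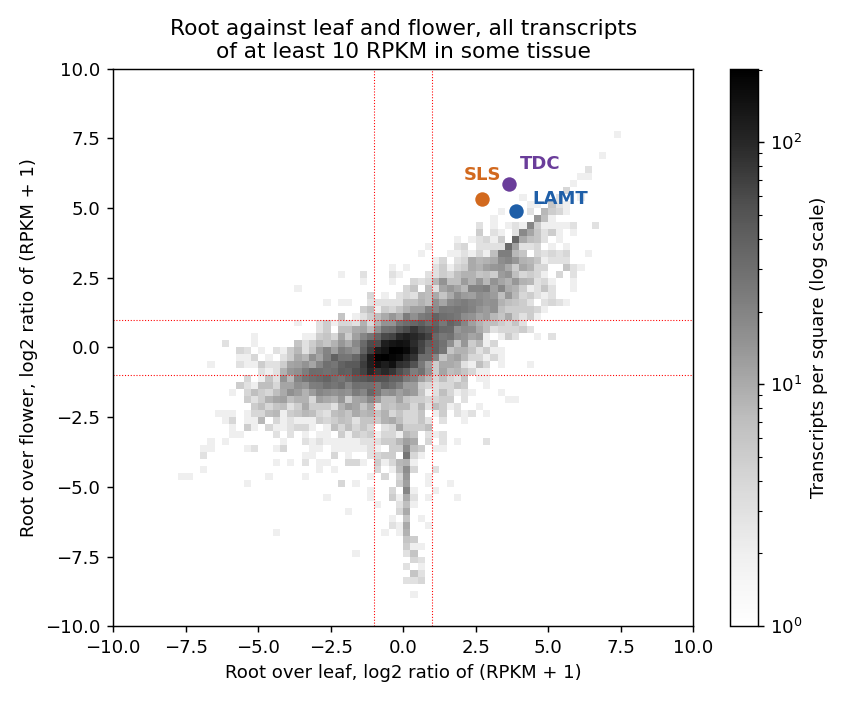
Log2 ratio of (RPKM + 1) of root over leaf (horizontal axis) and root over flower (vertical axis) for the 13867 expressed transcripts, drawn as squares shaded by the number of transcripts on a log scale, with dotted lines at 2-fold. LAMT (3.90, 4.89), SLS (2.70, 5.34) and TDC (3.63, 5.87) lie in the upper right corner, past both 2-fold lines.

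LAMT and SLS differed from each other in leaf. SLS was 6.62-fold higher in leaf than in flower, with a log2(RPKM + 1) ratio of 2.64. LAMT was 2.81-fold higher as a plain ratio, but its log2(RPKM + 1) ratio was 0.99, just under the 2-fold line. At 3.37 and 1.2 RPKM it was also under 10 RPKM in both libraries, so it is not among the 12310 transcripts compared in this pair. Of those, 21.5% stood at least 2-fold higher in leaf, and the median was 0.07. The LAMT ratio passed the line with a pseudocount of 0.1 (1.42) and with libraries scaled to the same total (1.02). The log2 ratio of SLS was the larger by 1.65 as reported, by 1.30 with a pseudocount of 0.1 and by 1.82 with one of 10.

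The leaf level of SLS lay midway between flower and root on a log scale. The plain ratio of leaf to flower was 6.62 and that of root to leaf was 6.56, so that leaf had covered 50.1% of the log2 distance from flower to root. For LAMT leaf had covered 26.0% of that distance. On the log2(RPKM + 1) scale the shares were 49.4% for SLS and 20.3% for LAMT, and over the 1315 transcripts with the same order of tissues the quartiles were 14.5%, 35.4% and 61.7%. Both members lay between the lowest and the highest of these quartiles. The order itself, root above leaf above flower at any size, was found in 9.48% of the 13867 transcripts.

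A stricter form of that order was much rarer. Root at least 2-fold above leaf together with leaf at least 2-fold above flower was found for 123 of the 13867 transcripts (0.887%). SLS was one of them and had the highest root level of the 123. At 4-fold for each step 7 transcripts were left (0.0505%), again with SLS at the highest root level. TDC, tryptophan decarboxylase, which makes the tryptamine part of strictosidine, was also among the 7. LAMT was in neither set on the log2(RPKM + 1) scale, where its leaf over flower ratio was 0.99. Its plain ratios of 2.81 and 19.03 met both 2-fold steps, and it also met them with a pseudocount of 0.1 (1.42 and 4.21) and with the same total (1.02 and 3.85). These steps of size were chosen after the values had been seen.

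Within each library the level of SLS exceeded that of LAMT by a factor that changed with the tissue. It was 26.1 in leaf, 11.1 in flower and 8.99 in root. A difference in scaling between libraries cancels in these factors. The authors removed duplicate reads before mapping, and how that acts on a very high level such as SLS in root was not tested. As plain ratios, the factor in leaf was the highest, and those in flower and root lay close together. On the log2(RPKM + 1) scale the excess of SLS was 4.35 in leaf, 3.15 in root and 2.70 in flower, so that root and flower changed places with the pseudocount. With a pseudocount of 10 it was 2.98 in root, 2.87 in leaf and 1.05 in flower, and root then stood highest.

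SLS is known to be present in this species as closely related copies. The authors counted uniquely mapped reads on assembled transcripts, and how reads of such copies were shared between transcripts was not tested. The level of Cr_TC01142 is that of 1 assembled transcript and may not be the sum over all copies.

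The 4 other iridoid transcripts with a known identifier did not share one pattern. GPPS is the small subunit of geranyl diphosphate synthase and supplies the precursor. Its root level of 205 RPKM was the highest, followed by 19.3 RPKM in flower, and leaf was the lowest at 13.5 RPKM. G10H, the P450 that hydroxylates geraniol, had 35.8 RPKM in leaf against 8.14 RPKM in root and 2.16 RPKM in flower. IS, iridoid synthase, which closes the iridoid ring, had 65.9 RPKM in leaf against 9.06 RPKM in root and 2.19 RPKM in flower. These 2 early enzymes were thus highest in leaf, where LAMT was at 3.37 RPKM, and in root they were lower than LAMT. CPR, the reductase that passes electrons to P450 enzymes such as G10H and SLS, had 214 RPKM in root against 76.4 RPKM in flower and 22.7 RPKM in leaf.

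Counted as a group of 6 with LAMT and SLS, the iridoid transcripts all exceeded flower in root by at least 2-fold, and 4 of them did with a pseudocount of 10. With no minimum level, 17.3% of the 51656 transcripts above 0 in that pair did so, and 20.8% of the 11639 reaching 10 RPKM. Shares over all transcripts above 0 take in very low ones, whose ratios the added 1 holds down. Between root and leaf the 6 split. LAMT, SLS, GPPS and CPR were past 2-fold on the side of root, beside 20.1% of all transcripts above 0. G10H (log2 ratio -2.01) and IS (-2.73) were past 2-fold on the side of leaf, beside 15.2%. Of the 12517 transcripts reaching 10 RPKM in that pair, 6828 were past 2-fold, 3104 of them higher in root. Between leaf and flower SLS, G10H and IS were past 2-fold on the side of leaf (10.7% of all transcripts above 0). CPR was past 2-fold on that of flower (-1.71, beside 11.3%), and GPPS (-0.49) was within 2-fold. LAMT (0.99) was just under the line on this scale, although its plain ratio was 2.81. Of the 12310 transcripts reaching 10 RPKM in that pair, 5219 were past 2-fold, 2643 of them higher in leaf. The median log2 ratio of the 6, LAMT and SLS included, was 2.50 for root over flower. It was 2.94 for root over leaf and 1.81 for leaf over flower. In these last comparisons the 6 ran in both directions, so the medians describe no common pattern. The other iridoid enzymes GES and 10HGO were not analysed here.

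**Figure D3:**
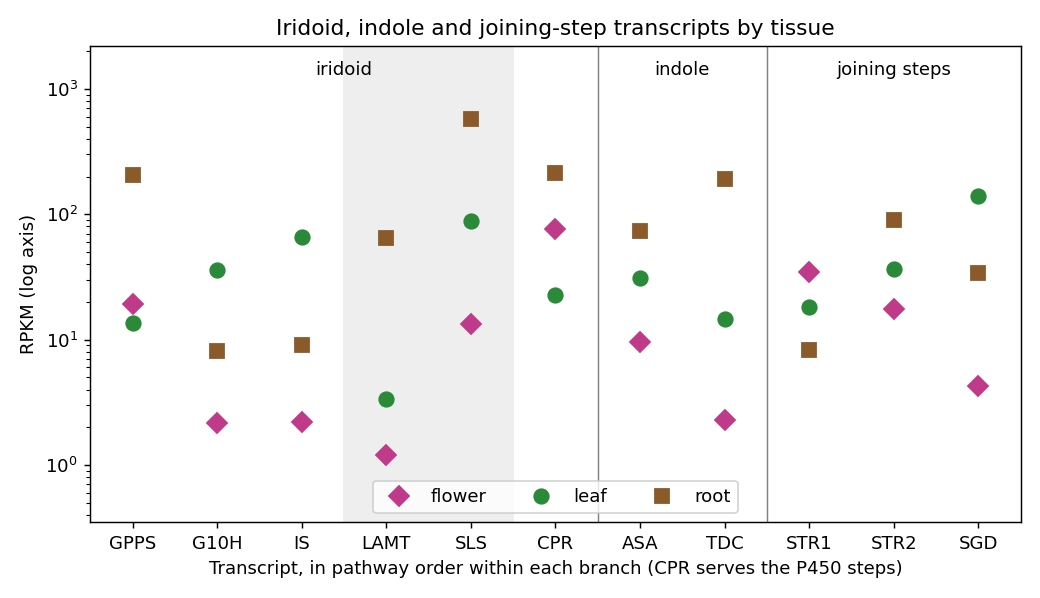
Level in RPKM on a log axis of the iridoid, indole and joining-step transcripts in flower (diamonds), leaf (circles) and root (squares), 1 library each, with LAMT and SLS shaded. LAMT and SLS share their tissue order, root above leaf above flower, with ASA, TDC and STR2, whereas G10H, IS and SGD are highest in leaf and STR1 in flower.

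In the indole branch, which supplies tryptamine, the tissue order of LAMT and SLS was found again. TDC had 191 RPKM in root against 14.5 RPKM in leaf and 2.29 RPKM in flower. ASA, the alpha subunit of anthranilate synthase at the entry to tryptophan, had 73.2 RPKM in root against 31.2 RPKM in leaf and 9.52 RPKM in flower. In leaf TDC had covered 41.7% of its log2 distance from flower to root, a value between those of LAMT and SLS, whereas ASA had covered 58.2%, above both. In root the level of SLS was 577 RPKM against 191 RPKM for TDC, and that of LAMT was 64.1 RPKM.

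The joining steps, which follow secologanin, were not alike. Strictosidine synthase couples secologanin with tryptamine, and SGD removes the glucose from strictosidine. STR2 had its highest level, 90.8 RPKM, in root, followed by leaf at 36.3 RPKM and flower at 17.5 RPKM. STR1 had the reverse order, from 34.8 RPKM in flower over 18.4 RPKM in leaf to 8.31 RPKM in root. SGD was highest in leaf at 139.8 RPKM, followed by root at 33.8 RPKM and flower at 4.25 RPKM. The 5 vindoline transcripts T16H, 16OMT, NMT, D4H and DAT, which follow later, all had a leaf level at least 2-fold above that of root, opposite to LAMT and SLS. This was so for 15.2% of all transcripts above 0. Among the 12517 transcripts reaching 10 RPKM in leaf or root, 6828 were past 2-fold and 3104 of these were higher in root.

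The likeness of patterns was measured as the Euclidean distance between log2(RPKM + 1) values centred over the 3 tissues. It is 0 for transcripts with the same ratios of (RPKM + 1), so it depends on their levels as well as on their plain ratios. With 3 points for each transcript many transcripts come close by their tissue order alone. Of the pathway transcripts that reached 10 RPKM, TDC was nearest to SLS at a distance of 0.66, place 6 of 13866, and LAMT was next at 1.20, place 51. TDC was also the nearest to LAMT, at 0.93 and place 207, with SLS next at place 372. T19H, which stayed under 10 RPKM in every tissue, was closer to LAMT (1.12) than SLS was (1.20). The place of SLS on the list of LAMT was 95 with a pseudocount of 0.1 and 2072 with one of 10. With the pseudocount of 1, LAMT and SLS were therefore each closer to TDC than to each other. In the whole table the transcript nearest to LAMT was Cr_TC02458, with 114 RPKM in root, 6.62 in leaf and 3.61 in flower (distance 0.21). Nearest to SLS was Cr_TC14074, with 203 RPKM in root, 29.2 in leaf and 3.42 in flower (distance 0.14). The files do not pair these identifiers with gene names.

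The log2 ratios of both members kept their direction under every pseudocount and scaling tried. LAMT moved the most, since its leaf and flower levels were low. Its root over flower ratio ran from 2.73 with a pseudocount of 10 to 5.63 with one of 0.1, whereas that of SLS ran from 4.66 with a pseudocount of 10 to 5.59 with a common upper quartile.

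**Figure D4:**
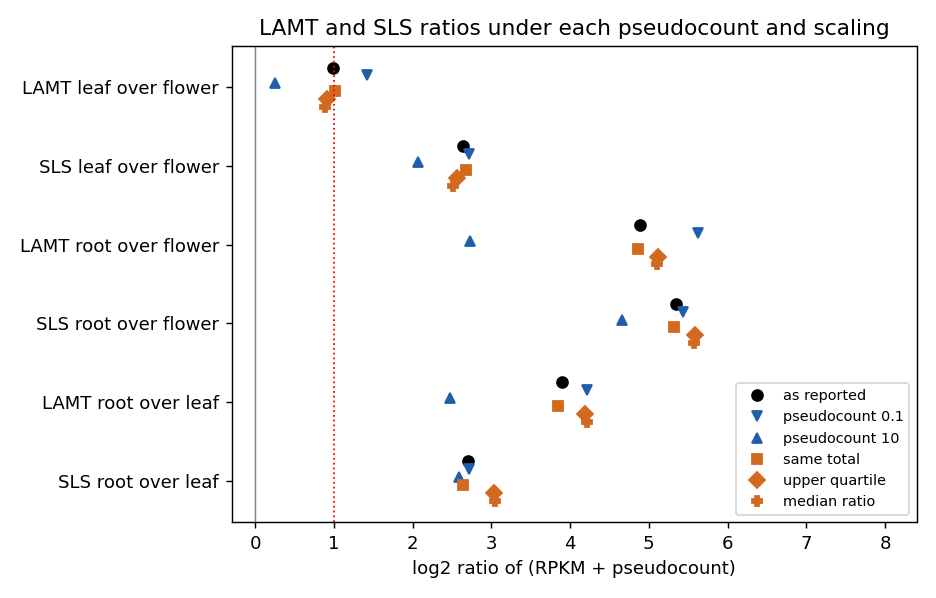
Log2 ratios of LAMT and SLS in the 3 comparisons as reported (black circles, pseudocount 1), with pseudocounts of 0.1 and 10 (blue triangles) and with libraries brought to an equal total, to an equal upper quartile or scaled by the median ratio (orange), with a dotted line at 2-fold. All values are above 0, and LAMT in leaf over flower is the comparison that lies on both sides of the line, from 0.26 to 1.42.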

How the data were processed

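Total RNA of leaf, root and flower (1 library each) was sequenced by the authors on an Illumina HiSeq instrument as paired-end reads. The authors filtered the reads with NGS QC Toolkit, removed duplicates, mapped them with CLC Genomics Workbench onto the de novo assembled transcripts (at most 2 mismatches) and counted uniquely mapped reads. The column is headed Base mean and the submitters' processing notes name DESeq, but the deposited values were taken as the authors' RPKM from their decimals, their sums and the log2 RPKM range of the study's heat map. Depth per value was not worked out, since no transcript lengths were used, so neither intervals nor a count test are given.

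Ratios were computed with a pseudocount of 1 and read against a line of 2-fold. Background shares were counted over transcripts whose larger value was at least 10 RPKM. Beside the counts of pathway transcripts, shares over all transcripts above 0 in the pair are given as well. The ratios of the named transcripts were taken with no minimum, but likeness of pattern was ranked among transcripts reaching 10 RPKM in a tissue. Ranks give tied values the same place. Named were LAMT, SLS and alkaloid pathway transcripts (iridoid, indole, joining, vindoline and T19H). Their identifiers stood in the study's text or were supplied with the description of the series. GES and 10HGO were left out because their identifiers stand only in a picture. For each member the nearest transcript of the table and the 2 nearest of the pathway were named too. The members and lists were chosen with earlier results of these data known. Alternatives were pseudocounts of 0.1 and 10, 3 scalings of the libraries, a line of 4-fold, and minimum levels. The code was tested on simulated data. A RefSeq gene table (assembly ASM2450571v1) matched 0 of the 59220 identifiers, so no coordinates or sequences are given. The tools were numpy 2.4.6, pandas 2.3.3 and matplotlib 3.10.9 under Python 3.11.15.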

Additional observations from a re-analysis of the deposited data

How the results depend on the processing

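Each of the 6 log2 ratios of LAMT and SLS between tissues was recomputed under 5 alternatives. Of these 30 values, all 30 were above 0 as in the report, and 28 stayed on the same side of 2-fold. The exceptions were LAMT in leaf over flower with a pseudocount of 0.1 (1.42) and with the same total (1.02), which passed 2-fold. Scaling to a common upper quartile moves every log2 ratio by -0.08 in leaf over flower, 0.25 in root over flower and 0.33 in root over leaf, and scaling by the median ratio moves them by -0.12, 0.23 and 0.35, before the pseudocount is added. Which member differed more depended on the pseudocount in root ratios, but not in leaf over flower. For root over flower, the SLS ratio minus the LAMT ratio was 0.45 as reported, -0.20 with 0.1 and 1.93 with 10. For root over leaf it was -1.20 as reported, -1.50 with 0.1 and 0.11 with 10. A pseudocount of 10 holds down LAMT, which was under 10 RPKM in leaf and flower, by its construction. A line of 4-fold changes no ratio, and 5 of the 6 ratios as reported were past it. With a pseudocount of 10, the iridoid transcripts higher in root than in flower were 4. With a line of 4-fold, the iridoid transcripts higher in root than in flower were 3 and those lower in leaf than in flower were 0. The shares of all transcripts in these comparisons with a pseudocount of 10 or a line of 4-fold were not counted. SLS stood at place 372 on the list of patterns like LAMT as reported, 95 with 0.1 and 2072 with 10. The nearest transcript to LAMT changed with either other pseudocount, and that to SLS with 0.1, but neither changed with a minimum of 1 or 50 RPKM. With minimums of 0 and 50 RPKM, the transcripts past 2-fold over the whole table were 10488 and 1637 for leaf over flower, 14995 and 1581 for root over flower, and 18061 and 1978 for root over leaf. The transcripts in the stepwise order root, leaf, flower at 2-fold, 123 as reported, were 125, 133 and 126 under the 3 scalings, which were tried after seeing the data. No paired analysis was possible because each tissue has 1 library, and for the same reason no library could be left out. Counting error, not gauged here, weighs most on LAMT in leaf and flower.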
